A study of Mus musculus with 26 samples.

Results

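The regions described here are stretches of the mouse genome where E14 embryonic stem cells gave signal in sequential chromatin immunoprecipitation (reChIP) in both orders of the antibodies and also in each of the total ChIPs. A region was a member when it had identical coordinates in the K4-K27 set (H3K4me3 antibody first, H3K27me3 antibody second) and in the K27-K4 set (the reverse order), and shared at least 1 bp with a region of total H3K4me3 and with a region of total H3K27me3. This gave 2774 members of the 21857 regions that the reChIP orders share (12.7%), and of 38918 regions listed for at least 1 order. Of the other shared regions, 11334 overlapped total H3K4me3 only, 2436 overlapped total H3K27me3 only and 5313 overlapped neither. Members were chosen by the measured signal of the 4 E14 ChIPs, so their E14 values are given as a description with no test, and the clones did not enter the choice.

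The study profiled E14 cells, an established mouse embryonic stem cell line of WT genotype grown in serum/LIF, as 2 replicates, and clonal lines of the E14 strain, which were WT clones 57 and 58 and DKO clones 43 and 53. DKO cells lack DPPA2 and DPPA4, a pair of DNA-binding proteins that the study calls epigenetic priming factors. Chromatin of formaldehyde-fixed cells was cut with MNase, and 10% of the material after the first antibody was kept as the in-line total H3K4me3 or total H3K27me3. Each replicate or clone gave 4 ChIP libraries, and 1 IgG-IgG reChIP from E14 replicate 1 and 1 from WT clone 57 served as background, so no DKO background was used. E14 replicate 1, E14 replicate 2 and the clones were sequenced in different batches, so E14 cells and clones cannot be compared free of batch, whereas all WT and DKO clones shared a batch. Each genotype rests on 2 lines, each of them 1 clone, and p-values between genotypes measure only the spread between such clones.

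H3K4me3 is laid down around start sites of active and poised genes by the SET1 and MLL complexes, and H3K27me3 is laid down by Polycomb repressive complex PRC2 over repressed genes. Chromatin that carries both marks is called bivalent and is known in embryonic stem cells for covering CpG-rich promoters of developmental regulators that are held at low expression. Single ChIPs cannot tell whether the marks share a nucleosome or lie on different alleles or in different cells, and reChIP selects fragments that carry both.

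Sequences were read for the promoters that carry the main contrasts among the members. All are from RefSeq, build GRCm38.p6, and run 5′ to 3′ over the 250 bases before the start site of the named gene, with CpG dinucleotides in capitals. Pdzrn4 (chr15:92396560-92396809, + strand), Zar1 (chr5:72581085-72581334, - strand), Rhoj (chr12:75308063-75308312, + strand) and Csf1 (chr3:107760470-107760719, - strand) are shown because their regions fell in DKO clones in both reChIP orders. They hold 1, 9, 7 and 10 CpG.
Pdzrn4: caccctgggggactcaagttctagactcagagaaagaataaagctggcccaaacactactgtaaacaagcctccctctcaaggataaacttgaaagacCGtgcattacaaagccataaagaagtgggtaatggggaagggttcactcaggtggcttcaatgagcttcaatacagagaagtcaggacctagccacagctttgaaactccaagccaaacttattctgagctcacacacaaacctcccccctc
Zar1: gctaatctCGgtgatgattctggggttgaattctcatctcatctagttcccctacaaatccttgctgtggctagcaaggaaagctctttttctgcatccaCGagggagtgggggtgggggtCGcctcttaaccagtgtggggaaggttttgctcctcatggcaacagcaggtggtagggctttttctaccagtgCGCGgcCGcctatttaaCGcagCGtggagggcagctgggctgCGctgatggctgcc
Rhoj: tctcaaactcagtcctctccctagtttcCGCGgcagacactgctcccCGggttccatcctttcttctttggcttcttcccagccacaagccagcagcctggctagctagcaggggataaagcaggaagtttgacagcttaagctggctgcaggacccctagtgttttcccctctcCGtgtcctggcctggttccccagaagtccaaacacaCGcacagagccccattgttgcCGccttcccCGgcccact
Csf1: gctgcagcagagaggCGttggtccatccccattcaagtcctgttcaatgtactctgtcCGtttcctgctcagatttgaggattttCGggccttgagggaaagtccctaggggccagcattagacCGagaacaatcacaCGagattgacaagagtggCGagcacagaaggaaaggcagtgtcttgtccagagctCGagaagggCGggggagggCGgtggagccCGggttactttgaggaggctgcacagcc
The promoters of Pou4f1 (chr14:104468000-104468249, - strand) and Tlx1 (chr19:45150465-45150714, + strand), which encode homeodomain transcription factors of sensory neurons and of the spleen, are shown as members that were not called lower in DKO clones. They hold 47 and 15 CpG.
Pou4f1: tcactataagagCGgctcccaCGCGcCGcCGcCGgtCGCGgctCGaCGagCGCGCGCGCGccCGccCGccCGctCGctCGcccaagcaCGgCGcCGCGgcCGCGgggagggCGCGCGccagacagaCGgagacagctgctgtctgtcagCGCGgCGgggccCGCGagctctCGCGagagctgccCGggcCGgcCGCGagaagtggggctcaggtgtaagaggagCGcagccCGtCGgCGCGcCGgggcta
Tlx1: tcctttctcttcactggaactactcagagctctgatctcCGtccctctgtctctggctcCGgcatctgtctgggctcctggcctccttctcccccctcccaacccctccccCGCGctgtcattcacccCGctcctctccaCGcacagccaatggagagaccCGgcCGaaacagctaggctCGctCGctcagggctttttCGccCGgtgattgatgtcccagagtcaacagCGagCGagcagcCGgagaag
Those of Pcx (chr19:4510222-4510471, + strand), which encodes the metabolic enzyme pyruvate carboxylase, and of Grb10 (chr11:12027972-12028221, - strand), which encodes an imprinted growth-restraining adaptor protein, stand at opposite ends of the balance between the total marks. They hold 16 and 8 CpG.
Pcx: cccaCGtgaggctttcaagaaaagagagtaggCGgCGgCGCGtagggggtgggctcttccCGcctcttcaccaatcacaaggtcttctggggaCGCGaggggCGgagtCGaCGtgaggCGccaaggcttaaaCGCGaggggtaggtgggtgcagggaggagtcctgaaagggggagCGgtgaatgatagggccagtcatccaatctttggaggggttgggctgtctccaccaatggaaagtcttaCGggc
Grb10: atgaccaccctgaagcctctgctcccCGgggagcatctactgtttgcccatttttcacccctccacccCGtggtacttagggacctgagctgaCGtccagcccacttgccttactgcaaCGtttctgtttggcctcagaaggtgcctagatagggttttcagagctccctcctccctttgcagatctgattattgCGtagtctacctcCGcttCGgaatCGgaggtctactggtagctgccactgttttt

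Members were mostly promoters. Within 1.5 kb of a RefSeq start site lay 2175 members (78.4%), against 56.7% of the other shared regions, and they covered promoters of 2656 of 26180 genes (10.1%). By class that share was 76.1% with total H3K4me3 only, 34.2% with total H3K27me3 only and 25.5% with neither. A high share at promoters was therefore not particular to members. The 599 remaining members lay at a median of 26647 bp from the nearest start site. Members were wide, with a median of 6450 bp (quartiles 4650 and 9600 bp), and 652 reached 10 kb or more, and they spanned 23.3 Mb in all. The median width was 3150 bp for regions with total H3K4me3 only, 3750 bp for those with total H3K27me3 only and 2400 bp for those with neither, and a wider region has more chance of touching a region of each total set. The CpG frequency of members (median 2.37 per 100 bp) lay between that of regions with total H3K4me3 only (2.82) and that of regions with total H3K27me3 only (1.77).

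At the limit of the rule, the smallest overlaps were 300 bp with total H3K4me3, at a region near Grm3, and 150 bp with total H3K27me3, at Gm9530. Just outside lay 43 shared regions with total H3K4me3 only whose nearest total H3K27me3 region was within 150 bp, and 1 with total H3K27me3 only that abutted a total H3K4me3 region. Dgat2 is one of the 43, abutting a total H3K27me3 region, and its K4-K27 level in WT clones 57 and 58 was 2.05 and 1.77 on the log2 scale.

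In every library used here the deposited level of a region is log2 RPM (reads scaled to the library total) per kb of region, and the level of the IgG-IgG reChIP at the same region was subtracted to give an enrichment in log2 units. In E14 cells the median K4-K27 enrichment over members was 2.33 and 2.75 in replicates 1 and 2, and that of K27-K4 was 2.47 and 3.74. That of the in-line totals was 0.83 and 0.95 for H3K4me3 and 0.94 and 0.95 for H3K27me3. In the clones, which the rule did not use, the median K4-K27 enrichment was 2.64 in clone 57, 2.22 in clone 58, 2.36 in clone 43 and 1.76 in clone 53. The median K27-K4 enrichment was 2.85, 2.18, 2.27 and 2.00 in the same order, and that of total H3K4me3 was 1.74, 0.81, 1.04 and 0.94. Total H3K27me3 gave 1.47, 0.92, 1.26 and 1.14, so clone 57 was the highest of the 4 clones in each ChIP. The plot of enrichment by library shows these medians.

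**Figure D1:**
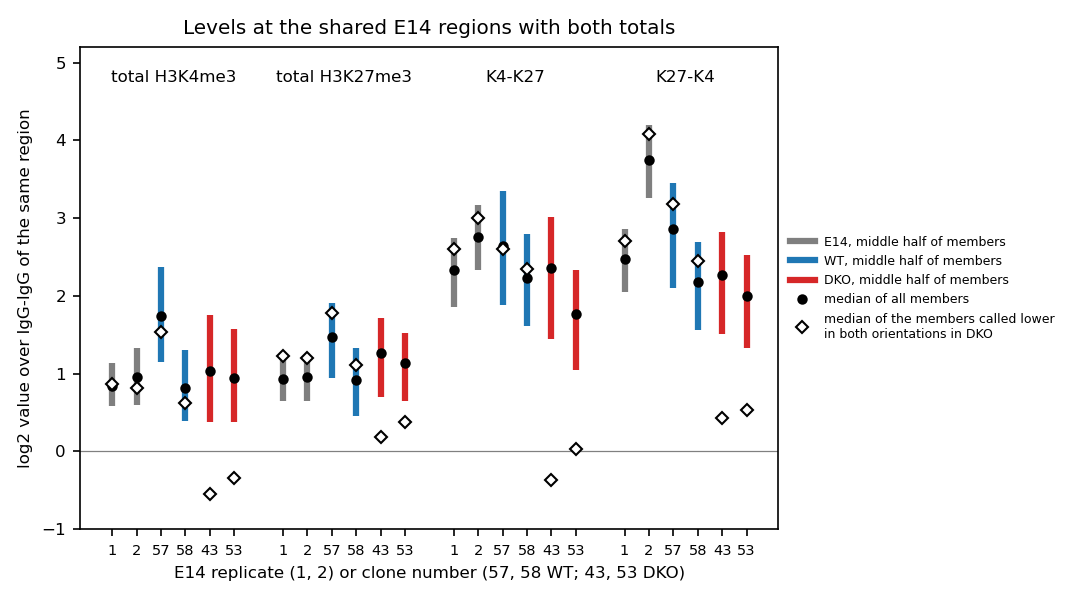
Enrichment over IgG-IgG of the same region in log2 units (y axis) in each E14 replicate and clone (x axis), by ChIP, with bars from the first to the third quartile of the 2774 members, black points at their median, and open diamonds at the median of the 138 members called lower in DKO clones in both reChIP orders. The diamonds lie inside or near the bars in E14 and WT libraries and below them in each DKO library.

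Carried over to the WT clones, 2690 of 2774 members had a mean level above IgG-IgG in both reChIP orders, and 1891 had a mean enrichment of at least 2 log2 units. Both counts are of members alone, so they do not set members apart from other regions. The other classes of shared regions had lower median enrichments in both orders. Regions with total H3K4me3 only had a median WT enrichment of 2.19 in K4-K27 and of 0.48 in K27-K4, against 2.44 and 2.53 for members. Regions with total H3K27me3 only had 1.14 and 1.77, and those with neither had 0.83 and 1.16. Over the 2774 members, mean levels in E14 cells and in WT clones correlated across regions with a Pearson r of 0.811 in K4-K27, 0.891 in K27-K4, 0.815 in total H3K4me3 and 0.732 in total H3K27me3, as a description of points that share region width and base composition.

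The clones have region sets of their own. Of the members, 1755 (63.3%) overlapped a region of all 4 WT sets, against 9.70% of regions with total H3K4me3 only, 29.7% of those with total H3K27me3 only and 13.2% of those with neither. In DKO sets 1471 members (53.0%) were listed 4 times, against 11.5%, 20.8% and 9.81% of the same classes. The WT set that most often missed members was total H3K27me3, which listed 68.6%, while the WT K4-K27 and K27-K4 sets listed 92.4% and 93.5%. Of the DKO sets, total H3K4me3 listed 71.6% of members, total H3K27me3 64.8%, K4-K27 82.2% and K27-K4 84.1%. No set listed 69 members in WT and 294 in DKO clones. The same counts were 726 and 1321 of 11334 regions with total H3K4me3 only and 561 and 804 of 2436 with total H3K27me3 only. Of 5313 regions with neither total they were 1999 and 2867, so the count was higher in DKO clones in each class. Region lists rest on a threshold, so they were read beside the levels and not tested.

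The 5 members at promoters with the highest E14 reChIP levels were Kif26b, Ccnd2 (with 9330179D12Rik), Adgrb1, Pde3b (with 4933406I18Rik) and Nell2. Kif26b, a kinesin needed for kidney development, lay at chr1:178527001-178534200 and had E14 K4-K27 levels of 3.02 and 3.56 and K27-K4 levels of 2.89 and 4.70 on the log2 scale. Its K4-K27 level was 4.32 and 3.57 in the WT clones and 3.90 and 3.20 in the DKO clones. The K27-K4 level was 4.53 and 3.69 in WT and 3.76 and 3.60 in DKO clones, so the genotypes overlapped in each order. None of these 5 regions was called in a comparison of DKO with WT clones. The 3 widest members were Hox clusters, at chr15:102915601-103043700 (Hoxc, 128100 bp), chr11:96247801-96360900 (Hoxb, 113100 bp) and chr6:52149151-52255950 (Hoxa, 106800 bp). Such wide regions average many promoters and the sequence between them, and their WT reChIP enrichment was 2.37, 2.22 and 2.38 log2 units.

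Cell identity was checked at promoters of pluripotency markers, since the files hold no expression. All 10 promoters (Pou5f1, Nanog, Sox2, Klf4, Zfp42, Esrrb, Tdgf1, Dppa2, Dppa4 and Dppa5a) lay in a region of total H3K4me3, with Pou5f1 at 3.40 and 2.10 in WT clones 57 and 58 and at 3.28 and 2.77 in DKO clones 43 and 53. Total H3K4me3 at the Dppa2 promoter was 1.90 and 0.77 in WT and 2.08 and 1.34 in DKO clones, and at Dppa4 it was 2.34 and 1.45 in WT and 2.39 and 1.56 in DKO clones. Where the deleted parts lie is not given with these data, so these promoters do not check the deletion. The genotype therefore rests on the labels. Only Esrrb, an orphan nuclear receptor of the pluripotency network, had a member, with a WT reChIP enrichment of 2.44. Between 6741245 and 47903464 reads stood behind a library, and a member held a median of 34 reads in the E14 IgG-IgG library, 73 in that of clone 57 and 91 or more in each ChIP library. Members with 0 reads were entered at 0.9 reads by the processing, which concerned 11 members in the IgG-IgG library of clone 57, 1 in WT K4-K27 of clone 57, 7 in DKO K4-K27 of clone 43 and 2 in that of clone 53.

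In each list of developmental transcription factors a larger share of genes had a member than the 10.1% of all genes. Of 39 Hox cluster genes, 38 lay in 7 members, Hoxb1 being the exception, and the 7 regions had a median total H3K4me3 minus total H3K27me3 of -1.18 log2 units in WT clones, low among the members. The Nkx genes had members at 11 of 14, the Irx and sine oculis homeobox genes at 10 of 12, the Pax genes at 7 of 9 and the LIM homeobox and Pou4 genes at 12 of 15. The Gata family had 4 of 6, the Dlx and Tlx genes 6 of 9, the T-box genes 7 of 17, the Sox genes 8 of 19, the forkhead genes 15 of 42 and the proneural bHLH genes 11 of 19. Among these, Isl1, a LIM homeodomain factor of motor neurons and heart, had the highest WT enrichment at 4.27 log2 units, and Foxq1 at 3.97 and Sox6 at 3.83 were the highest of the forkhead and Sox genes. The lowest was 0.93 at Pax4, a factor of pancreatic islet cells.

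Signalling and channel genes followed. Wnt ligands, Frizzled receptors and Sfrp antagonists had members at 19 of 33 genes, ranging from 4.37 log2 units of WT enrichment at Fzd4, a Wnt receptor that shares its region with Tmem135, to 1.27 at Wnt8a. BMP, GDF and Nodal ligands had 11 of 27, from 3.89 at Bmp6 to 0.91 at Gdf5. FGF ligands had 5 of 22, from 3.88 at Fgf10 to 1.15 at Fgf6, and ephrins and Eph receptors had 3 of 22. Voltage-gated potassium channel genes had 16 of 40, from 3.64 at Kcnq5 to 0.997 at Kcnh6.

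Of 79 cytosolic ribosomal protein genes, 2 had a member and 56 had a shared region with total H3K4me3 only. Of 20 pluripotency genes, 1 had a member and 12 had a shared region with total H3K4me3 only. Over all 26180 genes, 2656 had a member and 10445 had such a region. Polycomb component genes had members at 10 of 32 (31.2%), with Pcgf5, a subunit of a variant PRC1 complex, at 3.34 log2 units of WT enrichment and Pcgf3 at 1.06.

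**Figure D2:**
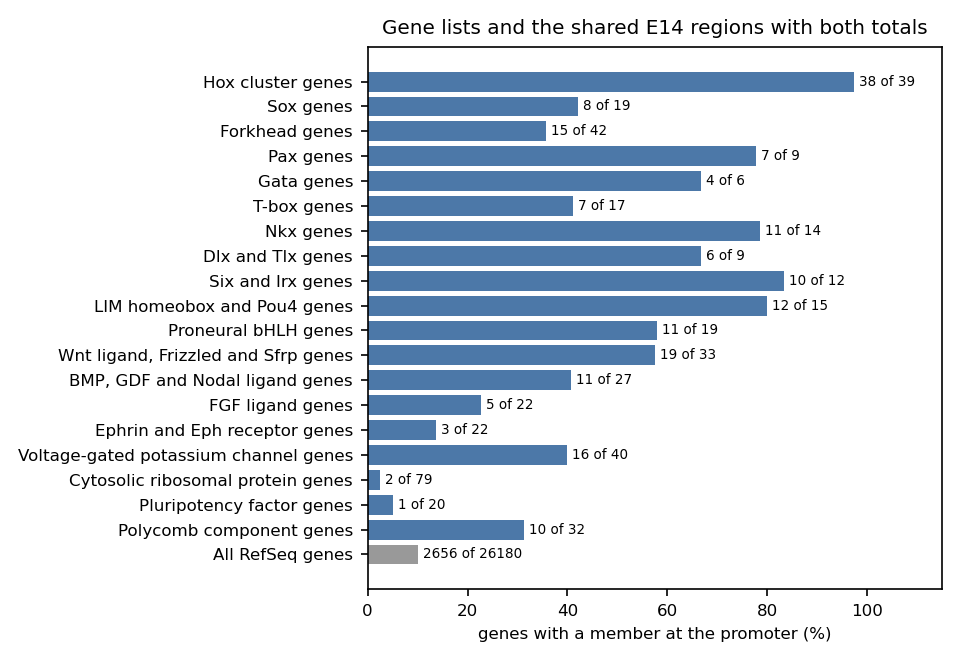
Share of genes with a member at the promoter (x axis, percent) for each of the 19 gene lists and for all RefSeq genes, with the counts at the bars. Hox cluster genes have the longest bar, 38 of 39, and cytosolic ribosomal protein and pluripotency factor genes lie below the bar of all genes.

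The comparison of DKO with WT clones asks where the marks depend on DPPA2 and DPPA4. Calls needed a log2 difference of more than 1, upward or downward, together with a limma p under 0.05 after Benjamini-Hochberg adjustment over all 38918 regions. K4-K27 was called lower in 151 members (5.44%), where 2.10% of all regions were, and higher in 2, where 0.686% of all regions were. K27-K4 was lower in 230 members (8.29%, against 3.35% of all regions) and higher in 2 (against 0.365%). Total H3K27me3 was lower in 83 members (2.99%, against 1.21%) and higher in 1 (against 0.421%). The share for total H3K4me3 was close to the background, with 142 members lower (5.12%, against 4.94%), and limma called 0 higher (against 0.185%). At an unadjusted p under 0.05, 1 member was higher in total H3K4me3, against 523 of all 38918 regions. The calls of lower in total H3K4me3 and total H3K27me3 fell to 54 and 12 members under quantile normalisation, against 591 and 39 of all 38918 regions. Without a variance trend and robust weighting they fell to 41 and 0 members, against 1149 and 0 of all regions. In the fit of all 16 clone libraries they fell to 0 and 0, over members and over all regions.

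Both reChIP orders were called lower in 138 members (4.97%), where 1.33% of all regions were, and in 0 members were both called higher, where 0.0154% of all regions were. Other shared regions were called lower in both orders in 3.94% of those with total H3K27me3 only, 2.65% of those with neither total and 1.05% of those with total H3K4me3 only, against 0.129% of regions that were not shared, and the difference between these classes was not tested. At an unadjusted p under 0.05, limma put 5 members higher in K4-K27 and 29 in K27-K4, against 1584 and 1647 of all 38918 regions. These members were chosen for signal in E14 cells of WT genotype, and the part of that choice in the direction of the calls was not tested. Leaving out 1 clone left 51 members called lower in both orders without clone 57, 98 without clone 58, 41 without clone 43 and 62 without clone 53. When limma estimated the variance without a trend and without robust weighting, 0 members and 0 of all regions were called lower in either reChIP order. At an unadjusted p under 0.05, 251 and 366 members were then lower in K4-K27 and K27-K4, against 3000 and 3534 of all 38918 regions. Quantile normalisation left 57 members called lower in both orders.

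Single orders and totals leaned on single clones too. K4-K27 calls of lower numbered 52 without clone 57, 98 without clone 58, 66 without clone 43 and 85 without clone 53. K27-K4 calls numbered 216 without clone 57, 570 without clone 58, 96 without clone 43 and 116 without clone 53. In both orders the share of members exceeded that of all regions in each of these fits. Calls of total H3K4me3 numbered 2 without clone 43 (0.0721%, against 0.696% of all regions), 3 without clone 53 (0.108%, against 1.12%), 37 without clone 57 (1.33%, against 2.18%) and 564 without clone 58 (20.3%, against 13.1%), so members lay below the background in 3 of the fits and above it in 1. Those of total H3K27me3 numbered 30 without clone 57 (1.08%, against 0.524%), 155 without clone 58 (5.59%, against 1.82%), 0 without clone 43 (0%, against 0.162%) and 29 without clone 53 (1.05%, against 1.15%).

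Most members were not called, and the median differences over all members, called ones included, were small. Over members the K4-K27 difference had a median of -0.36 on the log2 scale and the K27-K4 difference one of -0.32, against -0.08 and -0.04 over all regions. Shared regions with total H3K27me3 only had medians of -0.29 and -0.31 and those with neither total -0.38 and -0.30, so the shift was not particular to members. Without clones 57, 58, 43 and 53 in turn the K4-K27 median became -0.15, -0.59, -0.67 and -0.05, and the K27-K4 median 0.01, -0.67, -0.45 and -0.19, so without clone 57 the K27-K4 median had the opposite sign. For total H3K27me3 it was 0.06, against 0.02, and became 0.32, -0.21, -0.03 and 0.14 in the same order. That of total H3K4me3 was -0.20, against -0.05, but became 0.15 when each library was centred on its median, which moved the median of all regions to 0.29, so its direction over the members depends on the scaling. It was also 0.25 without clone 57, and -0.67, -0.25 and -0.15 without clones 58, 43 and 53. Centring moved the member medians of K4-K27 and K27-K4 to -0.19 and -0.23 and those of all regions to 0.10 and 0.05. Quantile normalisation moved the member median of K27-K4 to -0.03 and that of K4-K27 to -0.30. Both DKO clones lay below both WT clones in 959 members for K4-K27 (34.6%, against 21.2% of all regions) and in 996 for K27-K4 (35.9%, against 25.0%). For total H3K4me3 this held in 707 members (25.5%, against 25.2%) and for total H3K27me3 in 423 (15.2%, against 16.7%). It held in both reChIP orders in 729 members (26.3%, against 11.7%) and in all 4 ChIPs in 321 (11.6%, against 4.52%). The reverse, both DKO clones above both WT clones, was found in 136 members for K4-K27 (4.90%, against 14.1%), in 212 for K27-K4 (7.64%, against 19.5%), in 31 for total H3K4me3 (1.12%, against 8.19%) and in 415 for total H3K27me3 (15.0%, against 19.6%).

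**Figure D3:**
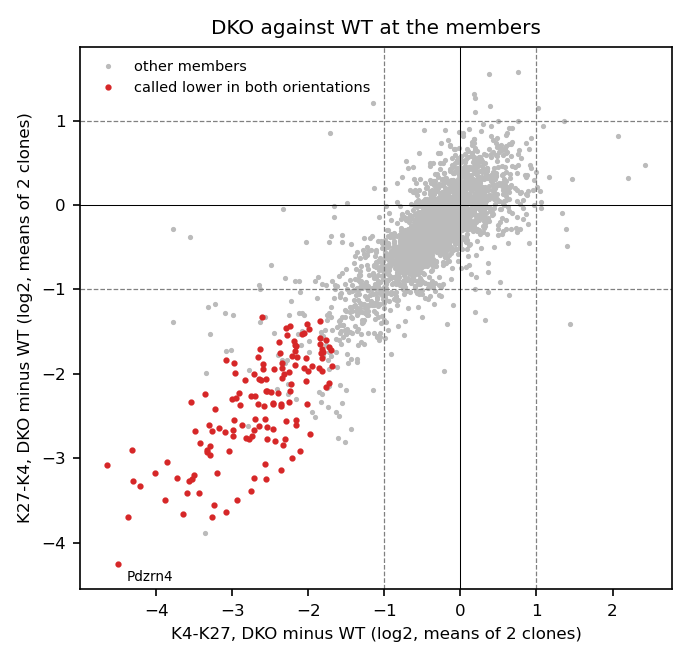
DKO minus WT difference of the clone means in log2 units, with K4-K27 on the x axis, K27-K4 on the y axis and 1 point for each of the 2774 members. The 138 members called lower in both orders are in red and reach from -1.69 to -4.64 on the x axis, Pdzrn4 is labelled, and dashed lines mark a difference of 1 in each direction.

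The 138 members called lower in both orders had a median log2 difference of -2.57 in K4-K27 (from -4.64 to -1.69) and of -2.34 in K27-K4 (from -4.26 to -1.33). The median K4-K27 enrichment over them was 2.603 and 2.35 in the WT clones and -0.37 and 0.02 in the DKO clones, so it reached the level of the IgG-IgG background. Median K27-K4 enrichment was 3.17 and 2.45 in WT and 0.43 and 0.53 in DKO clones. The totals had a median difference of -1.61 for H3K4me3 and -1.15 for H3K27me3. Both totals were also called lower in 53 of the 138, H3K4me3 alone in 48, H3K27me3 alone in 12 and neither in 25. In 131 of the 138 both DKO clones lay below both WT clones in all 4 ChIPs. Among the other 2636 members the split was 6, 35, 12 and 2583, and 190 lay below in all 4 ChIPs. The split of the 138 rests on calls of the totals that fell to 0 members for each total in the fit of all 16 clone libraries. The WT reChIP sets listed 136 of the 138 in both orders and the DKO sets 21, and 89 were in no DKO reChIP set. Of the other 2636 members, 2346 and 2157 were listed in both orders and 250 were in no DKO reChIP set. The 138 were chosen on the same WT and DKO reChIP libraries, so their listing is no separate support.

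In WT clones the 138 members were close to the other 2636 in their share at promoters and in enrichment. At a promoter lay 107 (77.5%, against 78.5% of the others), the median width was 5400 bp against 6600 bp, and the median WT reChIP enrichment was 2.61 against 2.44 log2 units. Their balance of total H3K4me3 over total H3K27me3 in WT clones was -0.36 against 0.05 log2 units. Over the whole region the median CpG frequency was 2.24 against 2.38 per 100 bp, and in the central 300 bases it was 3.67 against 2.83 per 100 bp, so promoter windows and region centres differed in opposite directions. The CpG count of the promoter window, from 250 bases before to 50 after the start site, had a median of 11.5 over 108 promoters inside the 138 members, 20 over 2559 promoters inside other members and 7 over all 32851 promoters. GGGCGG, counted on either strand, was in 36.1% of the promoters in members that fell, in 61.7% of those in other members and in 35.7% of all promoters. TATAAA was in 6.48% and 7.31%, CCAAT in 33.3% and 33.4% and CACGTG in 6.48% and 7.85% of the same 2 groups, against 13.6%, 37.4% and 7.15% of all promoters, each on either strand. A match of letters is a description of the window and not a binding site.

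The largest mean fall was at Pdzrn4, which encodes a PDZ and RING finger protein, in a region at chr15:92394751-92399850. Its K4-K27 level was 2.70 and 2.12 on the log2 scale in WT clones 57 and 58 and -1.84 and -2.35 in DKO clones 43 and 53, a difference of -4.50 ± 0.62 (SE, n = 2 clones a group, limma adjusted p = 1.28e-09). The K27-K4 level was 3.12 and 2.27 in WT and -1.69 and -1.45 in DKO clones, a difference of -4.26 ± 0.36 (limma adjusted p = 2.86e-07). All DKO values lay below the IgG-IgG level of -0.02 at this region, and the mean fall over both orders was 20.8-fold. Total H3K4me3 fell from 1.30 and -0.02 to -1.76 and -1.04, and total H3K27me3 from 1.36 and 0.45 to -1.19 and -0.70. Its E14 K4-K27 levels had been 1.76 and 2.19. The promoter printed above for Pdzrn4 has 1 CpG in 250 bases. Without clone 53 the mean fall at Pdzrn4 was 19.9-fold, below that at Zar1 (29.1-fold), Rhoj (25.3-fold) and Esr1 (21.4-fold). The first place of Pdzrn4 therefore rests on that clone.

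A region at chr2:150499501-150501300, 14438 bp from the start site of Zfp345, had the next largest mean fall, 16.3-fold, and is the only one of the 10 largest away from a promoter. Zar1, which encodes an RNA-binding protein of oocytes, fell 14.5-fold (chr5:72578851-72583050). Its K4-K27 level was 1.88 and 1.62 in WT and -4.47 and -1.31 in DKO clones, where clone 43 had 2 reads, and K27-K4 was 2.51 and 1.84 in WT and -1.33 and -0.47 in DKO clones. Rhoj fell 13.7-fold (chr12:75307201-75311100), with K4-K27 at 1.76 and 1.23 in WT and -4.36 and -1.08 in DKO clones. Its level in clone 43 also rests on 2 reads. At both genes the groups did not overlap in any ChIP. Without clone 43 the mean fall was 7.23-fold at Zar1 and 7.39-fold at Rhoj, and without clone 53 it was 29.1-fold and 25.3-fold, so their size and rank rest on 1 clone.

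Cdcp1, a transmembrane substrate of Src kinases, fell 13.8-fold (chr9:123214051-123217800), and its DKO clones had similar K4-K27 levels, -2.30 and -2.80. Esr1, the oestrogen receptor alpha gene, fell 12.9-fold (chr10:4708201-4714500) from K4-K27 levels of 2.70 and 1.78 to -2.47 and -0.83, and its mean fall was 7.81-fold without clone 43 and 21.4-fold without clone 53. The remaining 4 were Sstr4, a somatostatin receptor (12.6-fold), Ptchd3 (12.2-fold), Slc35f3, a solute carrier (12.1-fold), and Twist2, a bHLH factor of mesenchyme (11.3-fold). All 10 regions were called lower in total H3K4me3 and in total H3K27me3 as well, and none was in a DKO set. They were chosen on their reChIP falls, so absence from the DKO reChIP sets is no separate support. These calls of the totals ended in the fit of all 16 clone libraries, where 0 members were called lower in either total, and those of total H3K27me3 ended without clone 43 and without a variance trend and robust weighting. In total H3K4me3 only 2 members were still called lower without clone 43 and 3 without clone 53, so most of the 10 lost that call too. Adjusted p-values of the 10 ranged in K4-K27 from 1.28e-09 at Pdzrn4 to 0.000901 at Rhoj and in K27-K4 from 2.86e-07 at Pdzrn4 to 0.000619 at Esr1 (limma). The K4-K27 call was lost without clone 57 at the region near Zfp345 (limma adjusted p = 0.196), Zar1 (0.158), Cdcp1 (0.189) and Rhoj (0.287), and without clone 58 at Zar1 (0.0645) and Rhoj (0.0807). Zar1 and Rhoj also lost it under quantile normalisation, Zar1 lost its K27-K4 call in the fit of all 16 clone libraries (0.0629), and all 10 lost both calls without a variance trend and robust weighting.

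**Figure D4:**
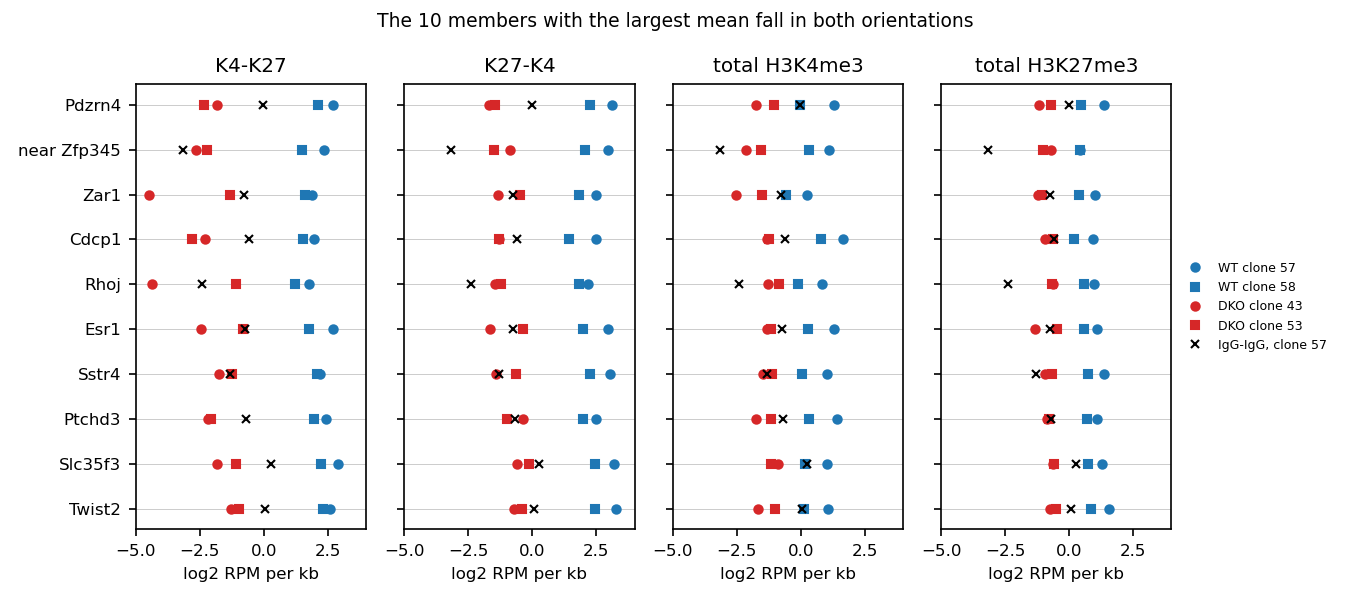
Levels in log2 RPM per kb (x axis) of the 10 members with the largest mean fall (y axis), with 1 panel for each ChIP, points for the WT and DKO clones and crosses for IgG-IgG of clone 57. Both WT clones lie to the right of both DKO clones in each row of each panel.

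From the gene lists, 9 members were called lower in both orders. The BMP list held Bmp3, a BMP ligand that opposes bone formation, with the largest fall among the lists, 11.2-fold (chr5:98852701-98858100). Its K4-K27 level was 2.44 and 2.14 in WT and -1.83 and -1.05 in DKO clones, and its K27-K4 level was 3.07 and 2.27 in WT and -0.81 and -0.34 in DKO clones, with both totals called lower. Over all 11 BMP, GDF and Nodal members the median difference was -0.85 in K4-K27 and -0.77 in K27-K4, and the other 10 were not called in either order. The Wnt list held Wnt16 and Wnt2, ligands of the Wnt pathway, 2 of 19 regions. Wnt16 differed by -2.56 ± 0.53 in K4-K27 (limma adjusted p = 0.000300) and by -2.20 in K27-K4, and Wnt2 by -2.09 and -1.53. Total H3K4me3 was called lower at both and total H3K27me3 at neither.

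Potassium channels gave the largest count of any list, 4 of 16 members (25.0%), where 4.92% of promoter members were called lower in both orders. The 4 encode subunits of voltage-gated channels. Kcnv2 differed by -2.54 in K4-K27 and -2.77 in K27-K4 (6.30-fold), Kcna2 by -2.16 and -2.55 (5.12-fold), Kcna6 by -1.73 and -2.11 (3.77-fold) and Kcnf1 by -1.82 and -1.97 (3.72-fold). At Kcna2 the K4-K27 level was 2.52 and 2.20 in WT and 0.24 and 0.17 in DKO clones, and the K27-K4 level was 3.05 and 2.36 in WT and -0.22 and 0.53 in DKO clones. Kcnv2 was the only one of the 4 with both totals called lower. The K4-K27 calls at Kcna6 and Kcnf1, and at Wnt2 above, were lost without any 1 of the 4 clones, that of Kcnv2 without clone 57, 58 or 43, and that of Kcna2 without clone 57, 43 or 53. The K27-K4 calls at Wnt16, Wnt2, Kcna6 and Kcnf1 were lost without either DKO clone, and that of Kcna2 without clone 43. Quantile normalisation ended the K4-K27 calls at Wnt2 (limma adjusted p = 0.0794), Kcnv2 (0.0928), Kcnf1 (0.0677) and Kcna6 (0.0794), and the fit of all 16 clone libraries ended the K27-K4 call at Wnt2 (0.0989). The other 12 potassium channel members were not called in either order, among them Kcnq5, the member with the highest enrichment in the list, at -0.98 ± 0.62 in K4-K27 (limma adjusted p = 0.623).

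Among transcription factors, Pax8, a regulator of thyroid and kidney, and Olig3, a bHLH factor of the dorsal neural tube, were called lower in both orders. Pax8 had K4-K27 levels of 2.15 and 1.81 in WT and 0.30 and 0.27 in DKO clones (-1.69, limma adjusted p = 0.0455). Olig3 had 1.83 and 1.49 in WT and -0.02 and -0.28 in DKO clones (-1.81, limma adjusted p = 0.0336). The K4-K27 call was lost at each of them without any 1 of the 4 clones, and the K27-K4 call without either DKO clone. Quantile normalisation also ended the K4-K27 calls at Pax8 (limma adjusted p = 0.0729) and Olig3 (0.0969), and the fit of all 16 clone libraries the K27-K4 call at Olig3 (0.0519). Of the other lists, 0 of the 7 Hox regions, 0 of 15 forkhead, 0 of 8 Sox, 0 of 12 LIM homeobox and Pou4 and 0 of 10 Polycomb members were called lower in both orders, and the Hox regions were not called in any of the 4 ChIPs. With 4.92% of all promoter members called, a count of 0 in lists of this size was not read as a difference. At the Hoxd region (chr2:74653651-74717100) K4-K27 was 2.52 and 2.44 in WT and 2.34 and 1.70 in DKO clones.

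Of the loci that the study used for qPCR or display, Meis2, Csf1, Pou4f1, Sox6 and Tlx1 were members, and only Csf1, which encodes macrophage colony-stimulating factor, was called. At Csf1 (chr3:107755351-107765400) K4-K27 was 1.66 and 1.40 in WT and -0.42 and -0.90 in DKO clones, a difference of -2.19 ± 0.57 (limma adjusted p = 0.00867). K27-K4 was 2.07 and 1.45 in WT and -0.05 and 0.35 in DKO clones, a difference of -1.61 ± 0.36 (limma adjusted p = 0.00781). The totals differed by -0.995 and -0.92 and were not called. Without any 1 of the 4 clones the K4-K27 call at Csf1 was lost, with adjusted p from 0.0577 to 0.207, and the K27-K4 call was lost without clone 43 or clone 53 (0.449 and 0.111). Quantile normalisation ended the K4-K27 call (0.0969) and the fit of all 16 clone libraries the K27-K4 call (0.0948). Pou4f1 differed by -0.38 ± 0.58 in K4-K27 and -0.62 ± 0.47 in K27-K4, and Tlx1 by -0.49 ± 0.54 and -0.48 ± 0.49, and none of these 4 differences was called.

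The 4 calls of higher in 1 order lay outside the naming rule and were named after their values were seen. They rest on few libraries, as 0 members were called higher in K4-K27 without clone 43, without clone 53 or under quantile normalisation, 0 in K27-K4 without clone 43 or in the fit of all 16 clone libraries, and 0 in either order without a variance trend and robust weighting. K4-K27 was higher at Ctxn2, with -1.47 and 0.25 in WT and 2.04 and 0.88 in DKO clones, and at a region near Gm17746. K27-K4 was higher at 1700064M15Rik, with 0.14 and -0.12 in WT and 1.80 and 1.31 in DKO clones, and at a region near Commd7. None had a call in a total ChIP. By chromosome, the member median of K4-K27 ran from -0.49 on the X to -0.23 on chromosome 8, where that of total H3K27me3 was 0.21 against 0.06 over all members, and the part of copy number in these values was not tested.

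The members also differed in the totals relative to each other. Balance was taken as total H3K4me3 minus total H3K27me3 over the WT clones, in log2 units. The 2 antibodies and the library scaling set where its 0 lies, so it orders regions and does not say which mark is more abundant. It had a median of 0.02 (quartiles -0.46 and 0.65), with 450 members above 1 and 156 below -1. In clone 57 alone the median was 0.22 with 656 members above 1, and in clone 58 it was -0.15 with 287. At one end lay Grb10 at -1.96, with total H3K4me3 at -0.36 and -0.38 and total H3K27me3 at 1.93 and 1.26, followed by a region near Sec61b, Lmx1b, a LIM homeodomain factor of the dorsal limb (-1.68), and Thbs2, a secreted matrix protein (-1.67). At the other end lay 2610301B20Rik at 3.82, Pcx at 3.71, the promoter of Fahd1 and Hagh at 3.68, and Zfp322a at 3.60. At Pcx total H3K4me3 was 2.49 and 1.22 and total H3K27me3 -2.30 and -1.42, below the IgG-IgG level of -0.21, so averaged over the width of this member H3K27me3 was not above background in WT clones. Its overlap with the E14 total H3K27me3 set had been 600 bp of 4800 bp. Balance in E14 cells and in WT clones correlated at an r of 0.847 over the 2774 members, as a description.

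The orders of the antibodies were then compared. In WT clones, K27-K4 was called lower than K4-K27 in 63 members (2.27%), where 20.2% of all regions were, and higher in 7 (0.252%), where 1.75% of all regions were. Of regions with total H3K4me3 only 53.1% were called lower, of those with neither total 3.05% and of those with total H3K27me3 only 0.123%, so the first of these classes supplied most of the calls and a low share was not particular to members. The libraries of both orders come from the same clone, and with the clone as a block 116 members were called lower and 11 higher. Centring each library on its median gave 47 lower and 37 higher, and with the block as well 59 and 67, so the split between the directions rests on the scaling. Leaving out 1 library gave 28 lower and 16 higher without K4-K27 of clone 57, 91 and 42 without K4-K27 of clone 58, 14 and 0 without K27-K4 of clone 57, and 10 and 0 without K27-K4 of clone 58.

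Members were split by balance into 5 bins of about equal size. All 63 members called lower were in the bin with the highest balance, and the 7 called higher were in the 3 bins with the lowest. The median order difference over bins of rising balance was 0.47, 0.29, 0.13, -0.06 and -0.55 log2 units. In clone 57 alone it was 0.71, 0.46, 0.27, 0.0024 and -0.58, and in clone 58 alone 0.21, 0.13, -0.0079, -0.14 and -0.54, so the bin where the sign turns differed between the clones. Both measures were taken from WT clones 57 and 58, whose totals were an in-line part of the same first ChIP as the reChIP. Across members balance and order difference correlated at an r of -0.805, and at -0.657 and -0.752 when balance came from 1 clone and order difference from the other. Members called lower in DKO clones in both reChIP orders numbered 39, 51, 29, 19 and 0 over the same bins of 555, 555, 554, 555 and 555 members. The bins also differed in width, from a median of 10050 bp to 5100 bp, in CpG frequency, from 2.17 to 2.88 per 100 bp, and in the share at a promoter, from 72.1% to 90.1%, and the part of these in the counts was not tested.

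The members with the lowest order difference were promoters with strong total H3K4me3. At 2610301B20Rik (chr4:10872151-10876350) K4-K27 was 2.84 and 2.38 in the WT clones and K27-K4 was 0.11 and -0.55, a difference of -2.83 ± 0.52 (limma adjusted p = 8.92e-07), while its total H3K27me3 of -1.23 and -1.71 lay below the IgG-IgG level of -0.08. Tut4, a terminal uridylyltransferase that acts on let-7 precursors, differed by -2.63 (limma adjusted p = 1.14e-05). Kmt2a, itself an H3K4 methyltransferase, differed by -2.45 (limma adjusted p = 2.76e-05), with K4-K27 at 3.19 and 2.53 and K27-K4 at 0.58 and 0.23. Each kept its call without any 1 of the libraries. At a promoter lay 59 of the 63 members called lower in K27-K4 and 3 of the 7 called higher. The 3 members with the highest order difference lay away from promoters, near Plet1 (2.40, limma adjusted p = 0.00147), near D6Ertd474e (2.21, limma adjusted p = 0.0106) and near Tecta (1.58, limma adjusted p = 0.0319). Their K4-K27 levels lay below 0 in both WT clones, at -0.61 and -1.82 near Plet1, and their K27-K4 levels above 0, at 1.58 and 0.80. Each of the 3 lost its call without K27-K4 of clone 57 and without that of clone 58.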

How the data were processed

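The authors trimmed reads with Trim Galore 0.6.6 and aligned them with BWA 0.7.13 to mm10 (GRCm38.p6), and the submitters' processing notes also list SAMtools 1.9, Picard 2.6.0, deepTools 3.5.0 and MACS2. The deposited values are log2 RPM per kb of region, counted in SeqMonk from alignments with a mapping quality over 20, without removal of duplicates or IgG-IgG subtraction. The study's methods call peaks with EPIC2 against IgG-IgG, but the edges of the deposited regions do not follow the stated bin size. Of the deposited columns, 32 match no sample of this series and were not used.

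Members and gene lists were chosen with earlier results of these data known. DKO and WT clones, and the orders in WT clones, were compared on log2 values with limma 3.58.1 (lmFit, eBayes with trend and robust) in R 4.3.3 over 38918 regions. The study used a count test. Here limma was used on the deposited log2 values, and no count test was run on the reads they imply. A region within 1.5 kb of a RefSeq start site was placed at that promoter. On simulated data over 38918 regions, limma recovered 18% of 200 regions shifted by 3 log2 units for K4-K27, 87.5% for K27-K4, 56% for total H3K4me3, 99% for total H3K27me3 and 64.5% for the orders, and it called 2, 28, 10, 18 and 15 unchanged regions in the same order.

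Regions named were the 10 largest mean falls, the 5 highest E14 promoters, loci of the study, the highest and lowest members of each list and any called in both orders, the widest, the smallest overlaps and the extremes of order difference and balance. The K4-K27 and K27-K4 libraries of 1 clone share its cells and so pair, and the clone entered as a block in an alternative to the main fit, with deviations from group means that correlated at 0.00763 in WT and 0.0493 in DKO clones over 21857 regions. Alternatives covered scaling, variance model, regions and libraries fitted, block, overlap and promoter width.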

Additional observations from a re-analysis of the deposited data

How the results depend on the processing

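Alternatives were run for 46 of the named log2 differences, which were those of the regions named for falls in both orders and of the extremes of order. Other named differences, such as those of Pou4f1, Tlx1, Kcnq5 and Ctxn2 and of the totals, were not run. Of 482 values, 372 kept their side of the threshold, 110 lost it and 0 reversed in direction. Among the 372 are 40 from dropping the threshold on the log2 difference, where a call cannot be lost. Changes of threshold, variance model, regions fitted or block, and the fit of all 16 clone libraries, keep the log2 difference itself. In those settings no reversal was possible, so only scaling and left-out libraries could give one. Leaving out 1 clone in turn gave 52 to 98 members lower in K4-K27, 96 to 570 in K27-K4, 2 to 564 in total H3K4me3 and 0 to 155 in total H3K27me3, 0 to 1, 0 to 28, 0 to 6 and 0 to 18 higher in the same order, and 41 to 98 lower in both reChIP orders. In these fits limma assumes that a lone clone varies like the other genotype. Quantile normalisation left 71, 54 and 12 members lower in K4-K27, total H3K4me3 and total H3K27me3, 57 lower in both orders, and 0, 7 and 0 higher in K4-K27, K27-K4 and total H3K27me3. Without a variance trend and robust estimation, limma called 0 lower in K4-K27, in K27-K4, in total H3K27me3 and in both orders, 41 lower in total H3K4me3, and 0 higher in K4-K27, K27-K4 and total H3K27me3. One fit of all 16 clone libraries gave 228, 120, 0 and 0 lower in K4-K27, K27-K4, total H3K4me3 and total H3K27me3, and 1, 0 and 0 higher in K4-K27, K27-K4 and total H3K27me3. Centring gave 4 higher in K27-K4 and 3 in total H3K4me3. Testing shared regions alone gave 6 higher in K27-K4 and 2 in total H3K27me3, as did leaving out the lowest quartile (6 and 2). The cause was not tested.

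For the comparison of orders in WT clones, the clone as a replicate block gave 127 calls (116 lower, 11 higher), and 126 with centring as well (67 higher), and centring alone gave 37 higher. Leaving out 1 library gave 10 to 133 calls, 10 to 91 lower and 0 to 42 higher. Of the 138 members called lower in both orders, 129 were called again after centring, 54 after quantile normalisation, 94 in the fit of all 16 libraries, and 51, 91, 39 and 61 without clones 57, 58, 43 and 53. Requiring 50% of the shorter region to overlap left 2746 members, and total regions at least 1 log2 unit above IgG-IgG in both replicates left 1932. With promoters of 5 kb either side, 80.3% of members lay at one.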
